A study of Mus musculus with 36 samples.

Results

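The 12 brainstem libraries of a mouse RNA-seq series were placed in a single contrast, in which the effect of losing hypocretin neurons was taken and the effect of losing the hypocretin gene was subtracted. Libraries were chosen by their tissue and genotype labels alone, with no measured value, and all 12 brainstem libraries of the 36 in the series entered. The other 24 libraries hold the same 4 genotypes in cortex and hypothalamus. The series compares both models of narcolepsy with their controls to separate what follows from absence of the peptide gene from what follows from absence of the cells.

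Each genotype had 3 brainstem libraries, and all mice were of strain C57BL/6. The first group was Hcrt/Orexin-ataxin-3 transgenic (OX-At-tg/+) and the second was the wild type of that line (OX-At-+/+). The third group was Hcrt/Orexin knockout (OX-KO) and the fourth was the wild type of that line (OX-+/+). No treatment is named. Neither age nor sex is given in the sources used here. As general background on the models, a hypocretin promoter drives a toxic ataxin-3 fragment in the transgenic line, so the target is the hypocretin neuron itself, while in the knockout line the cells are present but cannot make the peptide. Whether the 3 libraries of a group came from separate mice is not stated, so each p-value reflects only how far these samples spread, which may be technical.

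Hypocretin, also called orexin, is a wake-promoting neuropeptide made from the precursor gene Hcrt in neurons of the lateral hypothalamus. These neurons send axons down to the brainstem, where the receptors Hcrtr1 and Hcrtr2 sit on noradrenergic, serotonergic and cholinergic cells that keep the brain awake and hold muscle tone. Hypocretin cell bodies are not in the brainstem, so a brainstem sample holds their targets and not the neurons.

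Gene counts per library ran from 21915540 to 42105559. Brainstem identity held in all 12 libraries. The 8 brainstem markers, among them the glycine transporter Slc6a5, summed to 561 to 790 CPM, against at most 3.15 in cortex and 16.1 in hypothalamus. CPM is a count scaled to the library's total, itself adjusted by a TMM factor for each library. Some features of the libraries touch the results. Wild-type libraries 1 and 2 of the ataxin-3 line stood apart, with 10.1% and 15.2% of their counted total outside annotated features against 6.38% to 7.33% in the other 10 libraries. In these libraries the nuclear RNA Rn7sk reached 72.8 and 266 CPM, against 0.679 to 1.65 CPM in the others. The amount of cerebellar RNA also varied within every group, with 18 cerebellar neuron genes summing to 828 to 1060 CPM in 6 libraries (transgenic 1 and 3, ataxin-3 line wild type 1 and 2, and library 3 of each knockout line group) and to 2300 to 3380 CPM in the other 6.

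**Figure D1:**
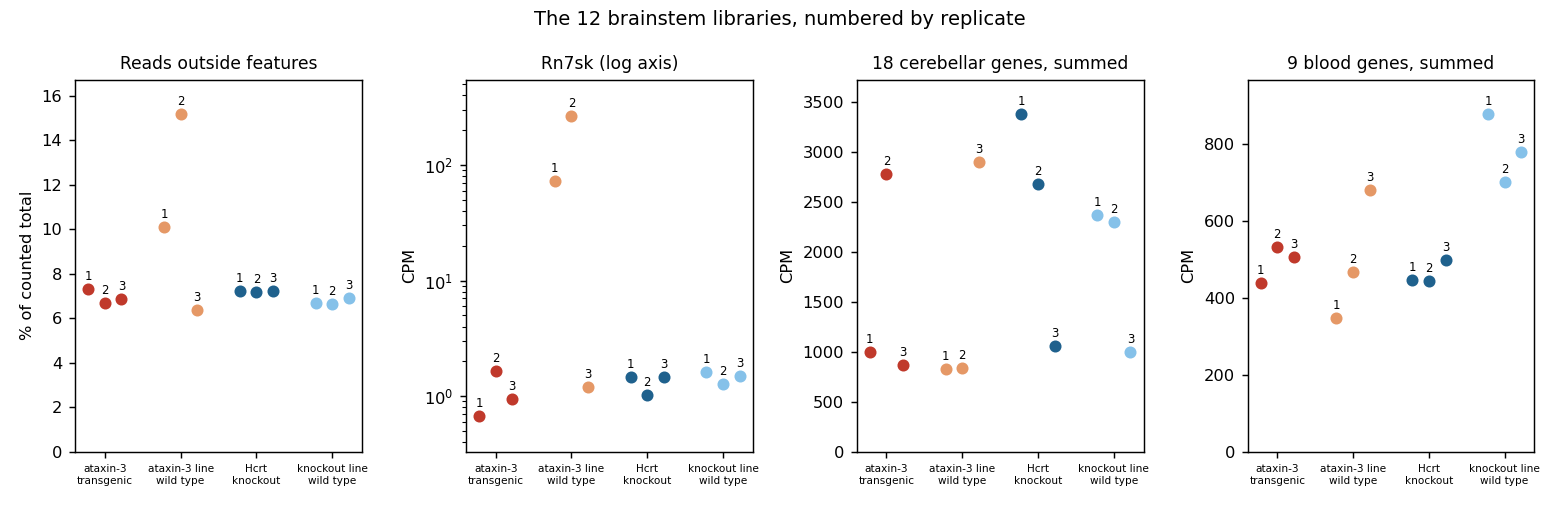
Checks of the 12 brainstem libraries, numbered by replicate within each of the 4 groups: reads outside features in percent of the counted total, Rn7sk in CPM on a log axis, and the summed CPM of 18 cerebellar and 9 blood genes. Ataxin-3 line wild type 1 and 2 lie apart in the first 2 panels (10.1% and 15.2%), and the 3 knockout line wild types are the highest in blood genes (702 to 879 CPM).

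No gene passed the test for a difference between the models in brainstem. With edgeR's quasi-likelihood test and Benjamini-Hochberg adjustment, 0 of 16493 genes had an adjusted p under 0.05 (0%), and the smallest adjusted p was 0.059. At an unadjusted p under 0.05 there were 783 genes (4.75%, where 825 would be the uniform share), 333 higher (2.02%) and 450 lower (2.73%). A positive difference here means that the log2 fold change of transgenic over its wild type exceeds that of knockout over its wild type. DESeq2 called 16 of 16489 genes (0.097%), 7 higher (0.0425%) and 9 lower (0.0546%), and limma voom with quality weights called 3: Adam11, Hcrt and C130046K22Rik.

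The count of calls moved most with the ataxin-3 line wild types. Without library 3 of that group, whose reads outside features were 6.38%, edgeR called 85 genes, 52 higher and 33 lower. Among the 52 were 5 of 80 tested cytosolic ribosomal protein genes (6.25%) and 8 of 79 oxidative phosphorylation subunit genes (10.1%), against 0.312% of the 16672 genes tested in that fit. Both families were chosen after the calls were seen. Rpl13a, one of the former, had 178, 174 and 254 CPM in the ataxin-3 line wild types against 236 to 290 CPM in the other 9 libraries. Cox5b, one of the latter, had 127, 124 and 160 CPM there against 162 to 180 CPM elsewhere. Both genes were chosen after their values were seen. In both genes wild types 1 and 2, those with the most reads outside features, were the lowest of the 12 libraries, and the part of that share in these levels was not tested. Without wild types 1 and 2 there were 4 calls. Of the genes lower by DESeq2, Rn7sk, Gm42418, Snora73b, Gm26945 and ENSMUSG00000097225 had their highest levels in the same libraries. Gm42418 reached 16000 and 91600 CPM there against 319 to 836 CPM in the other 10. Snora73b had 1.44 and 4.29 CPM there against at most 0.362 CPM elsewhere. Gm26945 had 3.29 and 4.5 CPM against at most 1.42 CPM. The part of these libraries in the DESeq2 calls was not tested.

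The 15 leading genes, 8 higher and 7 lower by smallest p, are described with both effects side by side, and for the difference all are named as not past the threshold by edgeR. DESeq2 put 11 of the 15 past it, with adjusted p from 1e-05 for Adam11 to 0.049 for Fkbp10. The others called were Cenpc1 (0.0022), Hcrt (0.0023), C130046K22Rik (0.0033), Stac2 (0.011), Med1 (0.013), Ghdc (0.014), Gm11642 (0.026), ENSMUSG00000097225 (0.04) and Rdm1 (0.041), while Ighm, Gm11940, Ikzf2 and Rnpc3 were not called. Of the 15 leading genes, 10 lie within 10 Mb of Hcrt on chromosome 11, a window that holds 326 of the 16493 tested genes. The absolute knockout effect was larger than the transgenic effect in 11 of the 15. Each effect was also tested on its own. The knockout effect called 12 of 16493 genes (0.0728%), 4 higher (0.0243%) and 8 lower (0.0485%), and 11 of the 12 lie within 10 Mb of Hcrt. At an unadjusted p under 0.05 it held 534 genes (3.24%), and DESeq2 called 21 (0.127%). The transgenic effect called 1 gene (0.00606%), Cenpc1, with 1377 (8.35%) at an unadjusted p under 0.05 and 9 by DESeq2 (0.0546%). Over all tested genes the 3 libraries of each group did not overlap in 9.84% of genes in the knockout line and in 12.1% in the ataxin-3 line. The share in which 3 libraries lay apart from all 9 others was not computed. The leading genes were chosen by p, so such a separation in them is a description and no added support. A call in the knockout effect and none in the transgenic effect does not show that the effects differ, and the test of that difference is the 0 of 16493 above.

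**Figure D2:**
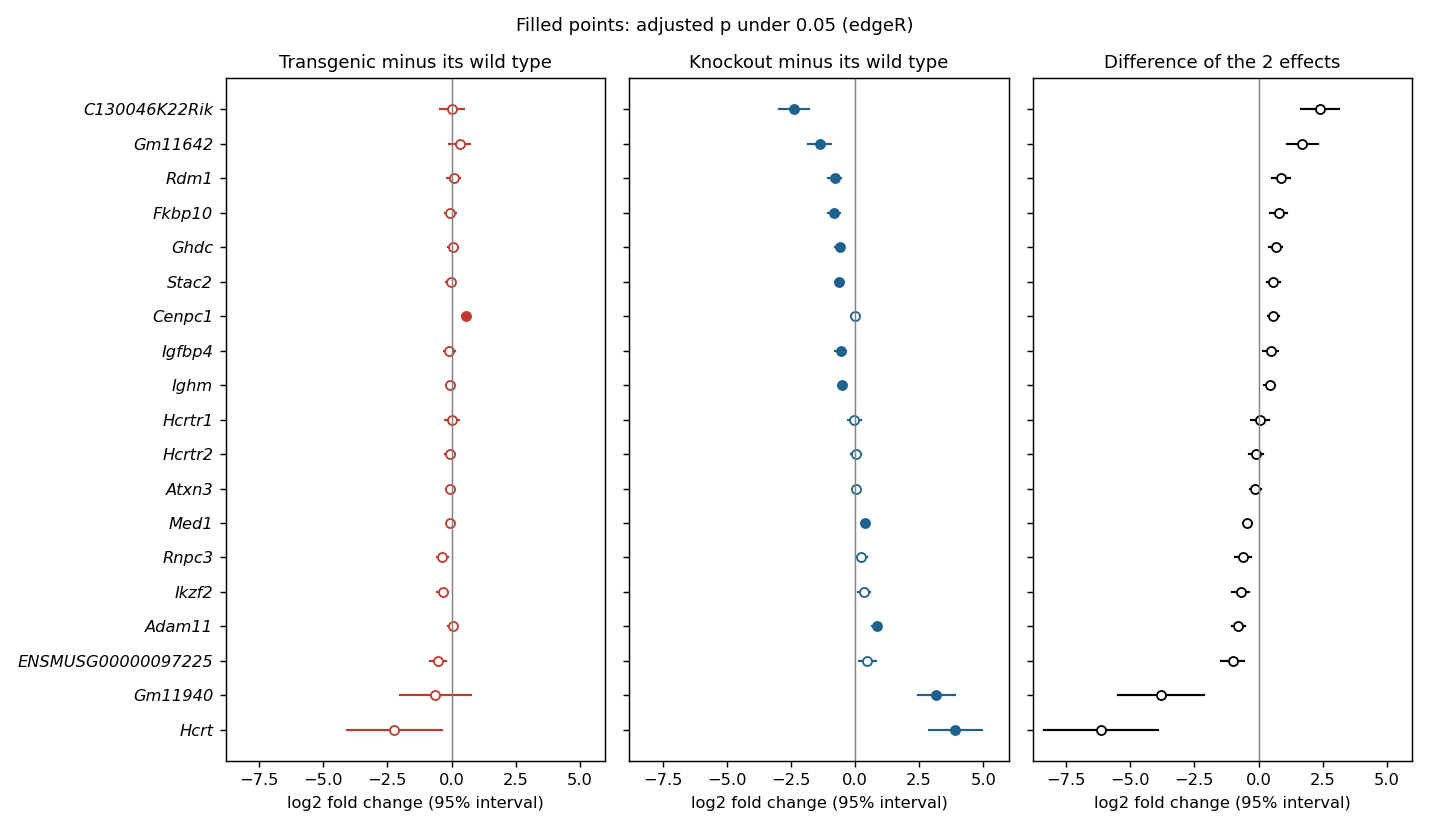
Log2 fold changes with 95% intervals for 19 named genes in brainstem: transgenic over its wild type, knockout over its wild type, and the difference of these effects. Filled points had an edgeR adjusted p under 0.05: Cenpc1 in the first panel, 12 genes in the second and none in the third.

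Hcrt itself had the largest difference among the 15 leading genes. This gene (chromosome 11, 100761069 to 100762931, minus strand, GRCm38) encodes prepro-hypocretin. In hypothalamus, where the neurons lie, Hcrt was low in both models, as labelled: its counts were 91, 63 and 122 in transgenic libraries, with 5244, 3296 and 7126 in the wild types of that line. Libraries labelled knockout held 34, 39 and 34 counts, with 3192, 2000 and 2266 in their controls. In brainstem the counts were 1, 1 and 1 in transgenic libraries and 5, 4 and 2 in the controls of that line. Controls of the knockout line held 5, 0 and 2 counts, where the 0 allows up to 3. In the brainstem libraries labelled knockout the counts were 29, 27 and 42, above the 9 others. In the scaling of all 36 libraries these were 0.888 to 1.29 CPM. That is near the 0.99 to 1.14 CPM of the hypothalamus libraries labelled knockout, where the wild types had 51 to 80.2 CPM. In brainstem the targeted gene was thus higher in these libraries than in their wild types, the reverse of the direction in hypothalamus. The reason was not tested, and these are called the libraries labelled knockout throughout. In the scaling of the brainstem libraries alone, the mean level of those labelled knockout was 1.01 ± 0.221 CPM (SD, n = 3). Their wild types had 0.0636 ± 0.0703 CPM (SD, n = 3).

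Hcrt rose in the libraries labelled knockout by 3.91 on the log2 scale (SE 0.49, edgeR adjusted p = 0.0017). In the transgenic libraries the log2 fold change was -2.23 (SE 0.88, edgeR adjusted p = 0.55), on 1 count per library. The difference of the effects was -6.14 (SE 1.04, 95% interval -8.35 to -3.93, edgeR adjusted p = 0.088). It passed the threshold in 5 of 21 alternative analyses, where the adjusted p ran from 0.0023 to 0.98, while the knockout effect passed in 21 of 22. In cortex the libraries labelled knockout held 17, 10 and 9 counts of Hcrt against 1, 30 and 1 in their wild types.

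The genes on either side of Hcrt are near: Kcnh4 lies 1.13 kb from Hcrt on one side and Ghdc lies 3.1 kb from it on the other. Because the leading genes cluster around Hcrt, the start-site windows of Hcrt and Ghdc are shown, with that of Cenpc1, the leading gene of the transgenic effect. Each runs from 250 bases before to 50 bases after the start (RefSeq, GRCm38.p6, 5′ to 3′ on the gene's strand, here minus for all), and capitals mark the motif TATAAA where a search of both strands found it.
Hcrt, chr11:100762882-100763181: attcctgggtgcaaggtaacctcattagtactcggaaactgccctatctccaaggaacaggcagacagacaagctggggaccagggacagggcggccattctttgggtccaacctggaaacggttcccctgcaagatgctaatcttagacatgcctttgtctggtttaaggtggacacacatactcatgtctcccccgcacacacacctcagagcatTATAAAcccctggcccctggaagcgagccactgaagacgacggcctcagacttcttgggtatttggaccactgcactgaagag
Ghdc, chr11:100770908-100771207: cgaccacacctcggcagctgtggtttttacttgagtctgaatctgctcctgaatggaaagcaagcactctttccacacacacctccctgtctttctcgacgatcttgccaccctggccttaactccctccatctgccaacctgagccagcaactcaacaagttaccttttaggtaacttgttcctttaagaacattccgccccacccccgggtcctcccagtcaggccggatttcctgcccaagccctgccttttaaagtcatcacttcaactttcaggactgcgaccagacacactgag
Cenpc1, chr5:86065534-86065833: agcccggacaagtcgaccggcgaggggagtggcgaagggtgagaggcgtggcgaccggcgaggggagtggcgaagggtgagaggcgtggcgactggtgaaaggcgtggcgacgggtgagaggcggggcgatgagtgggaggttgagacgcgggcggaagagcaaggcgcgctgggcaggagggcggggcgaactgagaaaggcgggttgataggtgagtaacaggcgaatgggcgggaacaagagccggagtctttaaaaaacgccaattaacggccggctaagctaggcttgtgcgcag
The motif begins at position -33 from the start in Hcrt and is not in the other windows shown, and 13.6% of the 32851 mouse promoter windows of this length hold it. The Cenpc1 window held 32 CG pairs, against 7 in Hcrt and 8 in Ghdc and a median of 7 over all windows. Of the 15 genes looked up in RefSeq, 7 had a window, and of those not shown that of Igfbp4 also holds the motif, at -28.

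Ghdc encodes a protein of little studied function, and it had low levels in the libraries labelled knockout. Its levels were 10.6, 10.6 and 10.7 CPM in transgenic libraries, 10.2, 9.88 and 10.3 CPM in their wild types, 6.98, 6.68 and 8.06 CPM in libraries labelled knockout and 10.2, 11.5 and 11.3 CPM in theirs. The 3 libraries labelled knockout lay below all 9 others. Ghdc fell in the knockout effect by 0.60 on the log2 scale (SE 0.09, edgeR adjusted p = 0.0059), while the transgenic effect was 0.07 (SE 0.09, edgeR adjusted p = 0.89). The difference was 0.67 (SE 0.12, 95% interval 0.41 to 0.93, edgeR adjusted p = 0.13).

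Kcnh4, a voltage-gated potassium channel subunit on the other side of Hcrt, was chosen after its values were seen. It stood at 0.0302, 0.132 and 0 CPM in libraries labelled knockout against 0.334, 0.29 and 0.259 CPM in their controls. The ataxin-3 line held 0.17 to 0.26 CPM in transgenic libraries and 0.209 to 0.378 CPM in wild types. The groups of the knockout line did not overlap, but the knockout effect of -2.42 (SE 0.60) had an edgeR adjusted p of 0.66. Its difference was 1.87 (SE 0.78, edgeR adjusted p = 0.94).

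Adam11 had the lowest p among genes with a negative difference. It encodes a neuronal ADAM protein without protease activity. Its levels were 92.6, 96.9 and 89.5 CPM in transgenic libraries, 80.3, 103 and 86 CPM in their wild types, 159, 187 and 160 CPM in libraries labelled knockout and 92, 90.6 and 99.5 CPM in theirs. Every library labelled knockout lay above the 9 others. Adam11 rose in the knockout effect 1.79-fold (log2 0.84, SE 0.08, edgeR adjusted p = 0.00062), and the transgenic effect was 0.05 (SE 0.09). The difference of -0.79 (SE 0.12, 95% interval -1.05 to -0.54) had an edgeR adjusted p of 0.059, and 8 of 22 alternatives put it past the threshold (adjusted p 1e-05 to 0.29).

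C130046K22Rik and Gm11642 are adjoining transcripts annotated as processed, non-coding transcripts, 2.95 and 2.96 Mb from Hcrt. C130046K22Rik had 0.272, 0.132 and 0.302 CPM in libraries labelled knockout, against 1 to 1.4 CPM in the other 9 libraries. It fell in the knockout effect by 2.37 on the log2 scale (SE 0.27, edgeR adjusted p = 0.00089), with a transgenic effect of 0.02 (SE 0.22) and a difference of 2.39 (SE 0.35, 95% interval 1.64 to 3.14, edgeR adjusted p = 0.059). It overlaps Gosr2 on the opposite strand, and the strand setting of the counting is not given in the sources used here, so its level is uncertain. Gm11642 had 0.544, 0.529 and 0.755 CPM in libraries labelled knockout against 1.18 to 2.01 CPM in the others. It fell in the knockout effect by 1.38 (log2, SE 0.21, edgeR adjusted p = 0.011), and its difference was 1.70 (SE 0.29, edgeR adjusted p = 0.088).

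**Figure D3:**
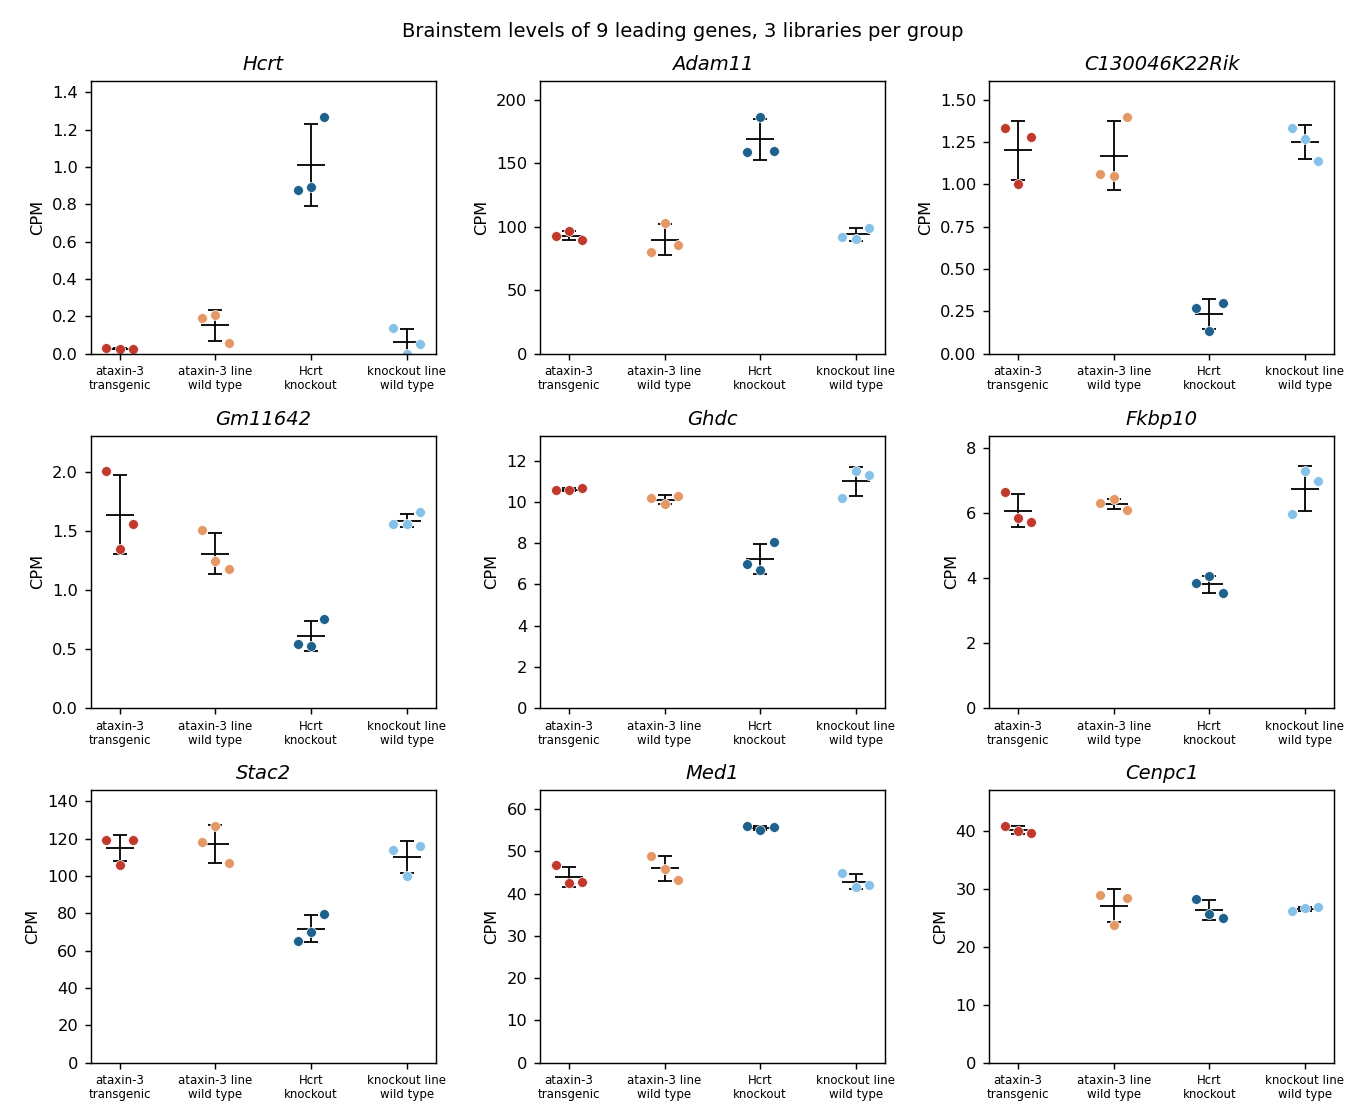
Brainstem levels in CPM of 9 leading genes by group, with points for the 3 libraries, a bar for the mean and whiskers for the SD. Libraries labelled knockout lie apart from the other 9 in all panels but that of Cenpc1, where the 3 transgenic libraries do (39.6 to 40.9 CPM). The genes were chosen by p, so this separation is a description.

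For the other leading genes near Hcrt the libraries labelled knockout were again those apart. Stac2, an adaptor of voltage-gated calcium channels, had 65.4, 70.2 and 79.8 CPM in libraries labelled knockout against 99.9 to 127 CPM in the other 9, and it fell in the knockout effect by 0.61 (log2, SE 0.08, edgeR adjusted p = 0.0039). Fkbp10, a collagen-folding isomerase of the endoplasmic reticulum that overlaps Nt5c3b on the opposite strand, had 3.84, 4.07 and 3.53 CPM there against 5.73 to 7.3 CPM elsewhere, and it fell by 0.83 (log2, SE 0.11, edgeR adjusted p = 0.0026). Rdm1, an RNA-binding protein related to the Rad52 repair factor, had 3.54, 2.61 and 3.26 CPM against 4.12 to 5.85 CPM elsewhere, and it fell by 0.80 (log2, SE 0.12, edgeR adjusted p = 0.0076). The difference of the models was 0.58 (SE 0.12) for Stac2, 0.78 (SE 0.15) for Fkbp10 and 0.88 (SE 0.17) for Rdm1, with edgeR adjusted p of 0.24, 0.17 and 0.17.

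Med1, a subunit of the Mediator complex that links transcription factors to RNA polymerase, had 56.1, 55.1 and 55.7 CPM in libraries labelled knockout against 41.6 to 48.9 CPM elsewhere. It rose in the knockout effect 1.3-fold (log2 0.38, SE 0.06, edgeR adjusted p = 0.014), and its difference was -0.44 (SE 0.09, edgeR adjusted p = 0.17). It overlaps Gm11604 on the opposite strand. Gm11940, which overlaps the keratin gene Krt10 on the opposite strand, had 1.45, 0.926 and 1.42 CPM against 0.0283 to 0.168 CPM elsewhere. Gm11940 rose in the knockout effect by 3.17 (log2, SE 0.35, edgeR adjusted p = 0.00062), and its difference was -3.80 (SE 0.80, 95% interval -5.49 to -2.12, edgeR adjusted p = 0.29). Igfbp4, a secreted binder of insulin-like growth factors, had 17.1, 17 and 17.3 CPM in libraries labelled knockout against 21.3 to 29.7 CPM elsewhere. Its knockout effect of -0.56 (SE 0.10) had an edgeR adjusted p of 0.048, and that call held in 7 of 23 alternatives.

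Ighm, the immunoglobulin heavy chain constant gene on chromosome 12, was the only gene called in the knockout effect that lies outside the window. Its levels were 39.5, 41.5 and 43.2 CPM in libraries labelled knockout and 54.2 to 67.8 CPM in the other 9. It fell by 0.51 (log2, SE 0.07, edgeR adjusted p = 0.0026), and the difference of the models was 0.43 (SE 0.10, edgeR adjusted p = 0.39).

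Over all tested genes within 10 Mb of Hcrt, 42 of 326 (12.9%) had an unadjusted p under 0.05 for the difference, against 741 of 16167 (4.58%) outside the window, with 0 of either past edgeR's adjusted threshold. DESeq2 called 9 genes in the window, 6 higher and 3 lower, of its 16. Of the 20 genes with the smallest p, 11 lay in the window. The share was 14.5% of 228 genes within 5 Mb and 9.18% of 98 genes from 5 to 10 Mb. For the knockout effect alone it was 14.1% in the window against 3.02% outside, and for the transgenic effect it was 5.21% against 8.41%. The median difference in the window was 0.03 on the log2 scale, with 177 genes above 0 and 149 below, against 0 over all genes. The window was chosen with results of these data known, and these shares are a description.

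**Figure D4:**
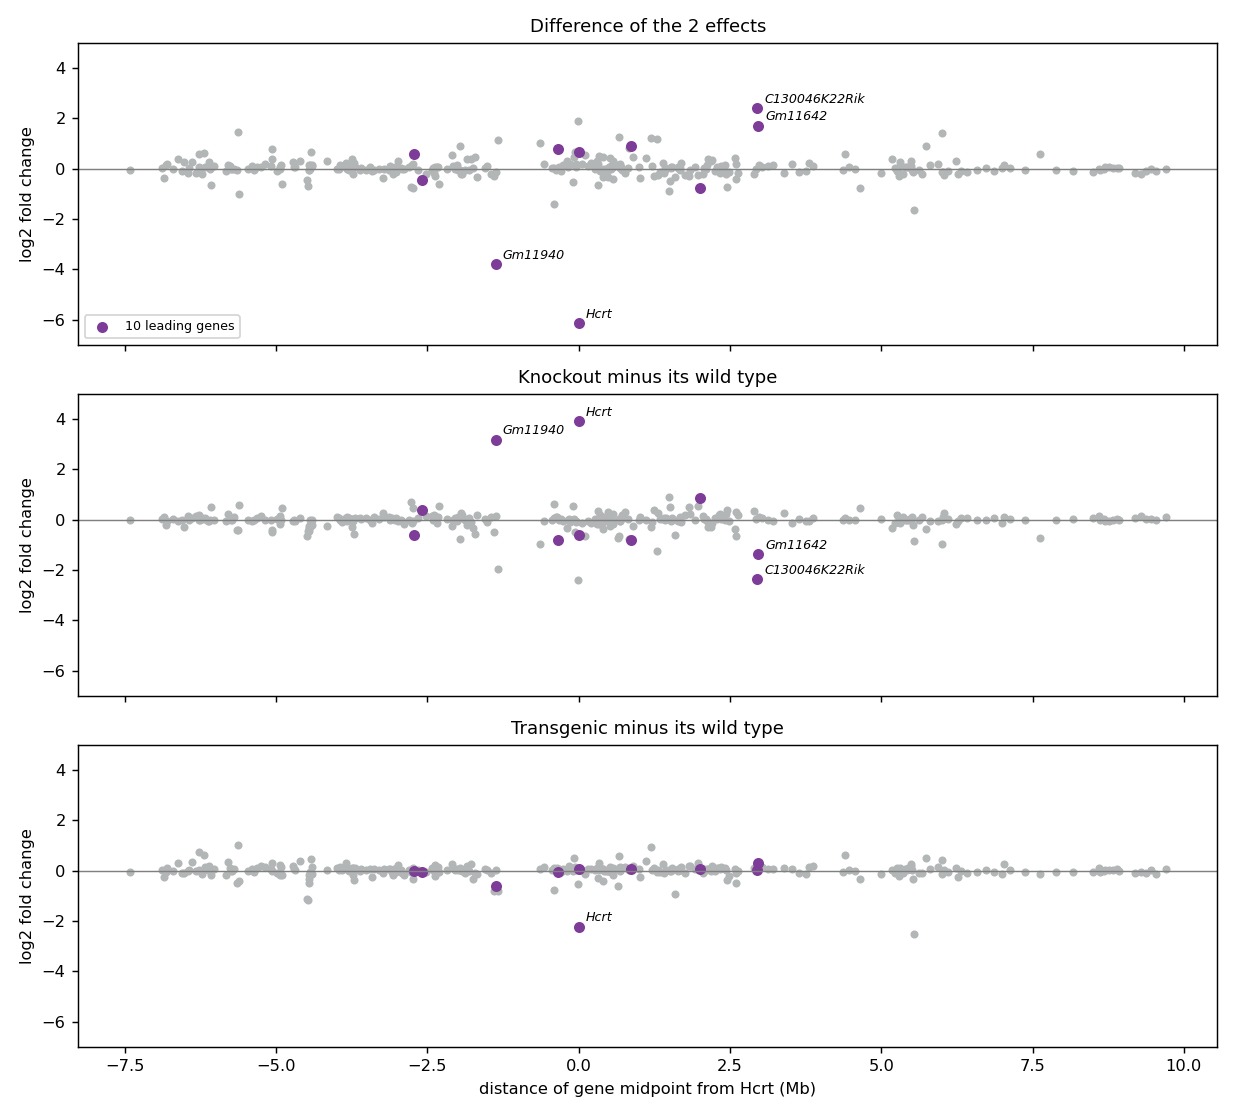
Log2 fold changes of the 326 tested genes within 10 Mb of Hcrt against the distance of each gene's midpoint from Hcrt in Mb, for the difference of the models, the knockout effect and the transgenic effect. The 10 leading genes (purple) lie between -2.72 and 2.96 Mb, and in the transgenic panel all of them but Hcrt (-2.23) and Gm11940 (-0.63) lie between -0.06 and 0.32.

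Further genes of the window were chosen after their values were seen. Stat5a, a transcription factor of cytokine and growth hormone signalling, had 2.57, 2.58 and 2.44 CPM in libraries labelled knockout and 3.34 to 4.39 CPM in the other 9. Its knockout effect was -0.65 (SE 0.12), with an adjusted p of 0.057 by edgeR and 0.04 by DESeq2, and its difference was 0.52 (SE 0.17, edgeR adjusted p = 0.94). Tubg2, a gamma-tubulin, stood at 31.7 ± 2.45 CPM (SD, n = 3) in libraries labelled knockout and 41.4 ± 2.26 CPM (SD, n = 3) in their wild types, with a difference of 0.44 (SE 0.11) and a knockout effect at an adjusted p of 0.14 by edgeR and 0.0053 by DESeq2. Asb16 went the other way, at 17.3 ± 0.641 CPM (SD, n = 3) against 12.3 ± 0.696 CPM (SD, n = 3), with a difference of -0.49 (SE 0.13) and a knockout effect at an adjusted p of 0.081 by edgeR and 0.0045 by DESeq2. The astrocyte filament gene Gfap lies in the same window, with 337, 332 and 349 CPM in libraries labelled knockout against 383, 438 and 430 CPM in their wild types and a difference of 0.36 (SE 0.11, unadjusted p = 0.0051 and adjusted p = 0.94 by edgeR).

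Cenpc1, on chromosome 5 at 86012024 to 86065583, was the leading gene whose difference lay with the transgenic libraries. It encodes centromere protein C, which anchors the kinetochore to centromeric chromatin. Its levels were 40.9, 40 and 39.6 CPM in transgenic libraries, 29, 23.8 and 28.4 CPM in their wild types, 28.3, 25.7 and 24.9 CPM in libraries labelled knockout and 26.2, 26.7 and 26.8 CPM in theirs. The transgenic libraries lay above all 9 others, which overlapped. Cenpc1 rose in the transgenic effect 1.48-fold (log2 0.56, SE 0.07, edgeR adjusted p = 0.014), with a knockout effect of -0.01 (SE 0.07) and a difference of 0.58 (SE 0.10, 95% interval 0.35 to 0.80, edgeR adjusted p = 0.13).

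The transgenic call of Cenpc1 held in 17 of 23 alternatives. It was lost without any of the 3 transgenic libraries (adjusted p 0.15, 0.084 and 0.10), with only the ataxin-3 line in the fit (0.38), without ataxin-3 line wild types 1 and 2 (0.05) and with the share of reads outside features as a covariate (0.13). The log2 fold change ran from 0.47 to 0.62 over the alternatives. Of the 66 tested genes within 10 Mb of Cenpc1, 4 (6.06%) had an unadjusted p under 0.05 in the transgenic effect, against 8.35% of all genes, and Cenpc1 was the 1 past the threshold.

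The remaining leading genes with a negative difference had effects of opposite sign in the models, none past the threshold of edgeR in the fit of all 12 libraries. Ikzf2, a zinc finger transcription factor of the Ikaros family, had 6.9, 6.12 and 7.6 CPM in transgenic libraries, 9.6, 9.36 and 7.55 CPM in their wild types, 8.19, 8.1 and 8.18 CPM in libraries labelled knockout and 6.9, 6 and 6.3 CPM in theirs. Its difference of -0.70 (SE 0.15, edgeR adjusted p = 0.39) was made of a transgenic effect of -0.35 and a knockout effect of 0.35. Rnpc3, a protein of the minor spliceosome that overlaps Amy1 on the same strand, had a difference of -0.61 (SE 0.14, edgeR adjusted p = 0.59), with effects of -0.36 and 0.25. The identifier ENSMUSG00000097225, without a name or position in the annotation used, had 8.92, 8.83 and 5.58 CPM in the ataxin-3 line wild types against 3.97 to 6.65 CPM in the other 9 and a difference of -1.01 (SE 0.22, edgeR adjusted p = 0.37). For all 3, ataxin-3 line wild types 1 and 2 were the highest of the 12 libraries, and those are the libraries with the most reads outside features. Without both, the difference was -0.47 for Ikzf2, -0.39 for Rnpc3 and -0.55 for ENSMUSG00000097225, the smallest of the alternatives for each. Without wild type 3 edgeR called all of them, at -0.81 for Ikzf2 (adjusted p = 0.022), -0.71 for Rnpc3 (0.023) and -1.22 for ENSMUSG00000097225 (0.0054). The 22 alternatives include a fit with the share of reads outside features as covariate. Over all of them the difference ran from -0.81 to -0.47 for Ikzf2 and from -0.72 to -0.39 for Rnpc3. For ENSMUSG00000097225 it ran from -1.22 to -0.55. Beyond that fit the part of this share in these levels was not tested.

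The hypocretin receptors did not differ past the threshold. Hcrtr1, the receptor of the locus coeruleus, had 6.34, 6.53 and 6.32 CPM in transgenic libraries, 6.46, 6.38 and 6.09 CPM in their wild types, 4.65, 6.32 and 7.03 CPM in libraries labelled knockout and 6.26, 6.17 and 6.01 CPM in theirs. All 4 groups overlapped, and the difference was 0.06 (SE 0.17, 95% interval -0.31 to 0.42, edgeR adjusted p = 0.99). Hcrtr2, the receptor of histamine and many cholinergic neurons, had levels of 12.1 to 16.8 CPM over the 12 libraries and a difference of -0.10 (SE 0.13, 95% interval -0.36 to 0.17, edgeR adjusted p = 0.98), and it overlaps Gm27234 on the opposite strand. Atxn3, the endogenous counterpart of the transgene, had 29.1 to 36.9 CPM and a difference of -0.12 (SE 0.10, 95% interval -0.33 to 0.09, edgeR adjusted p = 0.95). Qrfp, a neuropeptide gene of the same hypothalamic region, had 3 counts in 1 wild-type library of the knockout line and 0 in the other 11, so it was not tested.

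Genes of the wake-promoting cells that receive hypocretin axons were compared by list. Of 11 tested noradrenergic and adrenergic neuron genes 0 passed, 3 were above 0 and 8 below, and the median difference was -0.14, against 0 over all genes with 49.3% above 0. None of the 11 had an unadjusted p under 0.05 by edgeR, and DESeq2 called 0. The noradrenaline transporter Slc6a2 had 6.32, 13.5 and 11.2 CPM in libraries labelled knockout against 4.68 to 8.16 CPM in the other 9, with a difference of -0.78 (SE 0.43, edgeR adjusted p = 0.94). Dbh, the enzyme that makes noradrenaline, stood at -0.23 (SE 0.25) and Th, the rate-limiting enzyme of catecholamine synthesis, at -0.35 (SE 0.41). The groups overlapped for all of these.

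Slc6a3, the dopamine transporter, varied within groups: it had 8.38 CPM in transgenic library 1, 2.88 CPM in ataxin-3 line wild type 2, 13.1 and 11.7 CPM in libraries labelled knockout 2 and 3, and 0.0869 to 0.207 CPM in the other 8. Its difference was -4.09 (SE 3.32, 95% interval -11.73 to 3.54). The dopamine neuron list had 5 of 6 tested genes below 0 and a median of -0.25. Of the 6, 0 were called and 0 had an unadjusted p under 0.05 by edgeR, with 0 called by DESeq2. Among 13 serotonergic neuron genes 0 passed, with 7 above 0, a median of 0.08 and 0 at an unadjusted p under 0.05 by edgeR, and DESeq2 called 0. The serotonin transporter Slc6a4 had a difference of 0.39 (SE 0.28, edgeR adjusted p = 0.94). Among 10 cholinergic and motor neuron genes 7 were above 0 and the median was 0.04. Nos1, the neuronal nitric oxide synthase, was the 1 member at an unadjusted p under 0.05 (difference -0.19, SE 0.09, edgeR adjusted p = 0.94).

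Transmission genes had 0 called by edgeR for the difference, and the glutamate and potassium channel lists lay mostly below 0. Over all genes 49.3% were above 0. Glutamate transporters and receptors had 13 of 14 tested members below 0, a median of -0.13 and 0 called, with the AMPA receptor subunit Gria2 at -0.25 (SE 0.10, unadjusted p = 0.024 and adjusted p = 0.94 by edgeR). With library 3 of the ataxin-3 line wild types left out, 9 of the 14 were below 0. Glycine and GABA genes split 6 and 6 with a median of -0.03. The 26 receptors for histamine, monoamines and acetylcholine split 13 and 13 with a median of -0.01. Potassium channel genes had 22 of 29 below 0 and a median of -0.09, and the sodium-activated channel Kcnt1 stood at -0.24 (SE 0.09, edgeR adjusted p = 0.94). In neuropeptide genes other than Hcrt the opioid precursor Penk had the smallest p, at 0.22 (SE 0.11, edgeR adjusted p = 0.94).

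Clock and activity genes had 0 called by edgeR or DESeq2 for the difference. Of 22 circadian clock genes 17 were below 0, the median was -0.05, and 2 had an unadjusted p under 0.05. Per2, a repressor of the clock's feedback loop, had 36.8, 39.3 and 30.5 CPM in libraries labelled knockout against 26.3 to 29.6 CPM in the other 9. Its difference was -0.36 (SE 0.12, edgeR adjusted p = 0.94), and its knockout effect was 0.36 (SE 0.08), with an adjusted p of 0.32 by edgeR and 0.045 by DESeq2. Per3 had 43.4, 44.2 and 43.3 CPM against 36.2 to 43.4 CPM elsewhere, overlapping ataxin-3 line wild type 2, and a difference of -0.25 (SE 0.09, edgeR adjusted p = 0.94). Among 27 immediate early genes, which follow neuronal firing, 12 were above 0 and the median was -0.04, and the nuclear receptor Nr4a3 had a difference of -1.07 (SE 0.40, edgeR adjusted p = 0.94). Glucocorticoid responsive genes had 13 of 16 below 0 and a median of -0.07, with 0 called by edgeR, 1 at an unadjusted p under 0.05 and 0 called by DESeq2.

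Protein handling genes, of interest for a transgene that makes an ataxin-3 fragment, showed no call for the difference. Of 24 chaperone and endoplasmic reticulum stress genes 17 were above 0 with a median of 0.07, and 0 reached an unadjusted p under 0.05 by edgeR, with 0 called by DESeq2. Of 17 ataxin-3 and polyglutamine handling genes 7 were above 0 and the median was -0.02. In the transgenic effect alone, 8 of the 24 (33.3%) and 5 of the 17 (29.4%) had an unadjusted p under 0.05 by edgeR. That share was 8.35% over all genes, and 0 were called. In the knockout effect it was 12.5% and 0%, against 3.24%. The summed chaperone genes were lowest in ataxin-3 line wild type 2, at 5160 CPM against 5630 to 6260 CPM elsewhere. In the polyglutamine handling list, Stub1 (78.7 and 80.9 CPM) and Sqstm1 (400 and 422 CPM) were lowest in ataxin-3 line wild types 1 and 2. Atxn1 was highest in them. Vcp, at 204 and 191 CPM there, was not set apart, with 202 CPM in knockout line wild type 2. These members were chosen after their values were seen. The part of those libraries in the shares was not tested. Atxn1, another polyglutamine disease gene, had 33.1, 32.1 and 35.5 CPM in transgenic libraries, 40.8, 39.5 and 37.9 CPM in their wild types and 32.2 to 38.3 CPM in the knockout line. The transgenic libraries lay below their wild types, and the difference was -0.29 (SE 0.10, edgeR adjusted p = 0.94).

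Markers of other cell types were compared in the same way, and in bulk tissue fewer cells of a type and less RNA per cell cannot be told apart. Blood genes had the largest positive median: 8 of 9 were above 0, the median difference was 0.87, 6 had an unadjusted p under 0.05 and 0 passed by edgeR or DESeq2. The beta-globin gene Hbb-bt had 29.2, 39 and 35.4 CPM in transgenic libraries, 24.7, 32.3 and 54.4 CPM in their wild types, 30.7, 29.5 and 33 CPM in libraries labelled knockout and 79.9, 59.2 and 65.3 CPM in theirs. The knockout line wild types were thus above the 9 others. DESeq2 called the knockout effect of Alas2 (-1.05, adjusted p = 0.013), Hbb-bt (-1.13, 0.029) and Hba-a2 (-1.03, 0.029), which edgeR did not (0.66, 1 and 1). The difference of Hbb-bt was 1.02 (SE 0.38, edgeR adjusted p = 0.94), and that of Alas2, the first enzyme of haem synthesis in red cell precursors, was 0.87 (SE 0.32, edgeR adjusted p = 0.94). Summed, the 9 blood genes reached 702 to 879 CPM in knockout line wild types, 443 to 497 CPM in libraries labelled knockout, 348 to 680 CPM in ataxin-3 line wild types and 438 to 532 CPM in transgenic libraries. Their part in the other results was not tested. Without ataxin-3 line wild types 1 and 2 the blood median was 0.41, without wild type 2 alone 1 gene had an unadjusted p under 0.05, and without wild type 3 the median was 1.23 and edgeR called 3 of the 9.

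Cerebellar neuron genes had 17 of 18 below 0 and a median of -0.39, with 0 called by edgeR or DESeq2 and 0 at an unadjusted p under 0.05. Gabra6, a GABA receptor subunit of cerebellar granule cells, had 16.4, 104 and 8.57 CPM in transgenic libraries, 12.4, 11.9 and 139 CPM in their wild types, 131, 85.1 and 22.1 CPM in libraries labelled knockout and 79, 87.9 and 16.2 CPM in theirs. All groups held libraries with high and with low levels. Without library 3 of the ataxin-3 line wild types the median turned to 0.75, with 17 of 18 above 0. With the cerebellar level as a covariate edgeR called 10 genes for the difference, 5 higher and 5 lower.

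Glial and vascular lists showed no call by edgeR or DESeq2. Oligodendrocyte and myelin genes had a median of 0.03 over 15 genes, astrocyte genes 0 over 15, microglia and complement genes 0.03 over 18 and endothelial and pericyte genes 0.10 over 17. In these lists the genes at an unadjusted p under 0.05 were 1, 1, 0 and 0. Ependymal and ciliated cell genes had 9 of 12 above 0, a median of 0.09 and 3 at an unadjusted p under 0.05, led by the axonemal gene Ccdc153 with 2.91, 3.12 and 2.49 CPM in transgenic libraries, 2.31, 1.83 and 2.19 CPM in their wild types and 2.33 to 3.03 CPM in the knockout line. Its difference was 0.56 (SE 0.20, edgeR adjusted p = 0.94).

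The remaining lists had 0 genes called by edgeR, and DESeq2 called 0 in each but the hypocretin neuron and neuropeptide lists, where it called Hcrt. Of 10 hypocretin neuron genes 6 were above 0 with a median of 0.04, and Nptx2, a synaptic pentraxin, had 5.44, 5.03 and 5.25 CPM in libraries labelled knockout against 5.75 to 6.7 CPM in the other 9 and a difference of 0.31 (SE 0.13, edgeR adjusted p = 0.94). Hindbrain Hox genes, which set position along the brainstem, split 8 and 10 with a median of -0.01. Interferon and antigen presentation genes split 11 and 8 with a median of 0.02, and choroid plexus genes split 8 and 6 with a median of 0.01. Oligodendrocyte precursor genes had a median of -0.04 over 11 genes, with Tcf7l2 at -0.47 (SE 0.17) and Olig2, a lineage transcription factor, at 0.24 (SE 0.09). Tcf7l2 had its highest levels, 8.88 and 8.52 CPM, in ataxin-3 line wild types 1 and 2, against 5.39 to 7.55 CPM elsewhere. Adenosine and prostaglandin genes of sleep control had 12 of 17 above 0 with a median of 0.04, and 0 had an unadjusted p under 0.05.

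The wild types of the lines were compared directly, since a difference of effects can come from either control. By edgeR 0 of 16493 genes passed (0%), with 2451 (14.9%) at an unadjusted p under 0.05, while DESeq2 called 290 of 5621 genes (5.16%). DESeq2 gave an adjusted p to only those 5621 genes here, against 16489 for the model difference. Its share is thus on a smaller base than the others. Without library 3 of the ataxin-3 line edgeR called 1177 genes between the wild types. For the leading genes near Hcrt, the log2 difference of ataxin-3 line over knockout line wild types was -0.07 for Adam11, -0.07 for C130046K22Rik, -0.12 for Ghdc, 0.09 for Stac2 and 0.10 for Med1. It was -0.11 for Fkbp10, -0.32 (SE 0.57) for Gm11940 and 1.05 (SE 0.74) for Hcrt. The wild types did not overlap for Rdm1, at -0.37 (SE 0.12) with 4.12 to 4.29 CPM against 5.06 to 5.85 CPM, nor for Gm11642, at -0.28 (SE 0.20) with 1.18 to 1.51 CPM against 1.56 to 1.66 CPM. For Ikzf2, Rnpc3 and ENSMUSG00000097225 it was 0.46, 0.35 and 0.80.

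The same contrast in the other tissues was set beside that of brainstem in a fit of all 36 libraries. In that fit 4 of 17744 genes passed in brainstem (0.0225%): Ghdc, Adam11, Gm11642 and Fkbp10, all within 10 Mb of Hcrt, with 549 (3.09%) at an unadjusted p under 0.05. In cortex 2 genes passed (0.0113%) and in hypothalamus 3 (0.0169%). Ghdc had a difference of 0.67 (SE 0.11) in brainstem, 1.08 (SE 0.12) in cortex and 0.91 (SE 0.11) in hypothalamus. Cenpc1 had 0.58 (SE 0.12), 0.38 (SE 0.12) and 0.52 (SE 0.12). Adam11 had -0.79 (SE 0.14), -0.30 (SE 0.14) and -0.26 (SE 0.14), and Gm11642 had 1.70 (SE 0.31), 1.12 (SE 0.33) and -0.03 (SE 0.30). The direct test of brainstem minus cortex called 0 of 17744 genes by edgeR (0%), with 308 at an unadjusted p under 0.05 (1.74%). That of brainstem minus hypothalamus called 0 by edgeR (0%), with 929 (5.24%), and DESeq2 called 1. For Adam11 the brainstem difference was lower than that of cortex by -0.49 (SE 0.19) and than that of hypothalamus by -0.53 (SE 0.19), with edgeR adjusted p of 1 and 0.81. For Gm11642 the brainstem difference exceeded that of hypothalamus by 1.73 (SE 0.44, unadjusted p = 0.00042 and adjusted p = 0.81 by edgeR). Hcrt itself differed by -6.04 (SE 2.54) from cortex and by -5.91 (SE 1.83) from hypothalamus, with edgeR adjusted p of 1 and 0.81. No difference was thus shown to be particular to brainstem.

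**Figure D5:**
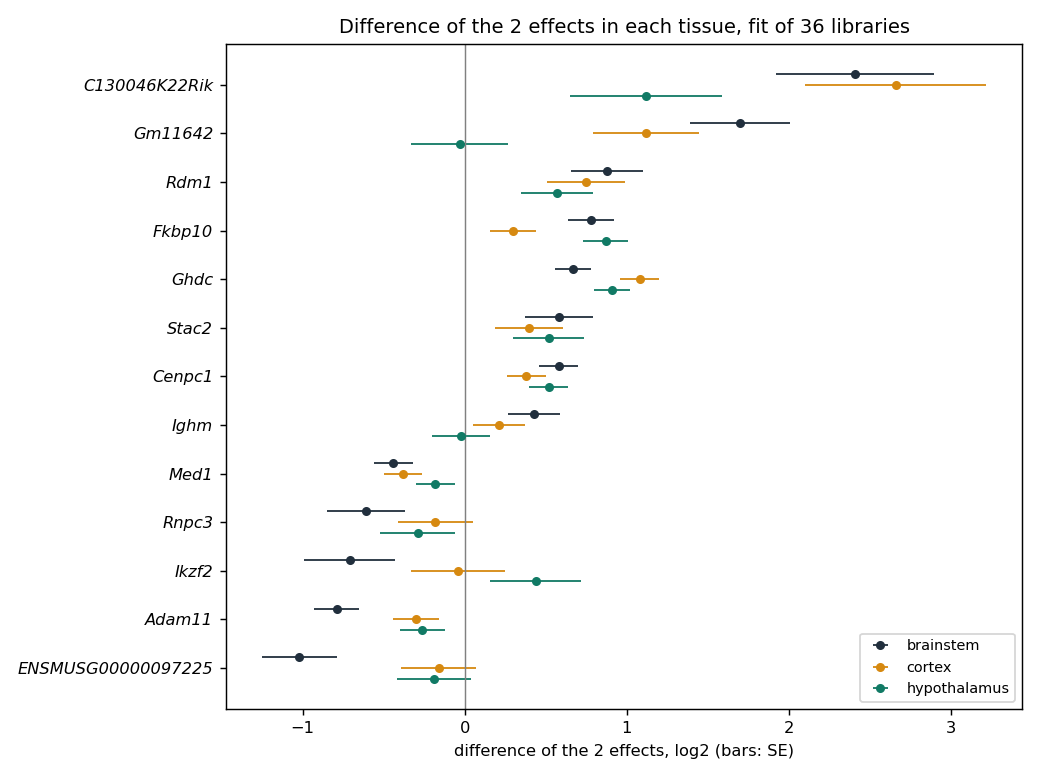
Difference of the models' effects (log2, points, with SE as bars) for 13 leading genes in brainstem, cortex and hypothalamus, from a fit of all 36 libraries. Ghdc and Cenpc1 lie above 0 in all 3 tissues, while Gm11642 is at 1.70 in brainstem and -0.03 in hypothalamus.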

How the data were processed

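Polyadenylated RNA was sequenced with a stranded library kit, per the labels' protocols, and the submitters' processing notes name cutadapt 1.2.1, TopHat2 2.0.9, HTSeq 0.5.4p3 and the build GRCm38. Neither the strand setting nor the annotation release of the counting is given in the sources used here. The authors deposited raw counts per Ensembl gene, 38924 genes and 5 special lines per library. The special lines held 27% to 42% of the counted total and were left out. Symbols and positions came from GENCODE M21 (37607 identifiers matched).

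Groups came from the labels, and 12 brainstem libraries entered 1 fit in R 4.3.3 with edgeR 4.0.16 (TMM factors, filterByExpr by group, glmQLFit robust, glmQLFTest, Benjamini-Hochberg, threshold 0.05), leaving 16493 genes. The contrast was (transgenic minus wild type) minus (knockout minus wild type). Each standard error is the size of the log2 fold change divided by the root of its F statistic. The biological coefficient of variation was 9.03%. The depth, 21915540 to 42105559 gene counts, allows up to 3 counts where 0 were seen, for counting error only. Pairs of libraries in a group differed by more than sampling noise (chi-square per degree of freedom 4.66 to 345).

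Genes were named by a rule: Hcrt, Hcrtr1, Hcrtr2, Atxn3 and Qrfp, in each direction the 8 of smallest p, up to 10 called per model and direction, and up to 4 per list. Unnamed or predicted genes were named only among the 3 largest, which left out 1. Members and lists were chosen with earlier results of these data known. Alternatives were DESeq2 1.42.0, limma 3.58.1 voom, other scaling and filters, a replicate block, all 36 libraries, only the compared groups, each library left out, and 3 chosen after seeing the data: leaving out ataxin-3 line wild types 1 and 2, the share of reads outside features as covariate, and the cerebellar level as covariate. Code was tested on simulated data.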

Additional observations from a re-analysis of the deposited data

How the results depend on the processing

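Counts of calls moved with the setting. For the model difference (0 by edgeR) they were 16 with DESeq2, 3 with voom, 5 with no filter, 4 in the fit of 36 libraries, 4 without ataxin-3 line wild types 1 and 2 and 10 with the cerebellar covariate, and 0 to 85 with each library left out: 85 without ataxin-3 line wild type 3 and 1 without wild type 1. For the transgenic effect (1) they were 9 with DESeq2, 13 in the fit of 36, 0 with only the groups compared, 5 without both wild types, 2 with the cerebellar covariate and 0 to 457 with each library left out (457 without wild type 3, 0 without any of the transgenic libraries). With the share of reads outside features as covariate the count was again 1, but Cenpc1 was not it. For the knockout effect (12) they were 21 with DESeq2, 21 with only the groups compared and 6 to 16 with each library left out: 6 without knockout 2, and 7 without knockout line wild type 2 and 7 without wild type 3. Between the wild types (0) they were 290 with DESeq2, 19 with no filter, 15 in the fit of 36, 7 without both ataxin-3 line wild types, 2 with the reads covariate and 0 to 1177 with each library left out (1177 without ataxin-3 line wild type 3, 1 without knockout line wild type 3). Brainstem minus cortex gave 0 to 4 and brainstem minus hypothalamus 0 to 2 (1 with DESeq2). The causes were not tested. Hcrtr1 ran from -0.1, without knockout replicate 1, to 0.19 with each library left out, and Hcrtr2 turned to 0.03 without both ataxin-3 line wild types. Among differences of the named genes, 370 values kept direction and side, 44 passed the threshold in the same direction and 2 turned. Replicate numbers were not taken as pairs in the main fit. Deviations of same-numbered libraries correlated from -0.33 to 0.34. Within the knockout line they were 0.16, 0.08 and 0.34, and within the ataxin-3 line 0.15, -0.18 and -0.32. Of 12 libraries 5 correlated best with their own number, and the replicate block gave 0 calls for the model difference. With 3 libraries per group these values can neither show nor exclude a pairing. Depth limits Hcrt, Kcnh4 and Gm11940 most, where several libraries hold under 10 counts. It also limits C130046K22Rik, which held 9, 4 and 10 counts in the libraries labelled knockout.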
